A study of Ogataea parapolymorpha with 8 samples.

Results

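Ribosomal protein genes of the yeast Ogataea parapolymorpha were followed across 8 RNA sequencing libraries of bioreactor cultures. Members were the nuclear genes that carry the gene ontology term for a structural constituent of the ribosome in the deposited annotation or in the term column of a deposited comparison table. The rule found 150 of the 5428 genes in the count table. The named homolog in baker's yeast (Saccharomyces cerevisiae S288C) placed 70 of them in the cytosolic ribosome, 44 in its large and 26 in its small subunit, and 70 in the mitochondrial ribosome, 42 in its large and 28 in its small subunit. Another 9 had no homolog named and were kept apart, and 1, PPE1, whose homolog is known as an enzyme, was kept apart as well. The term stood in the annotation for 114 members and in the table for 144. No gene of the mitochondrial DNA carried it.

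A yeast cell makes 2 kinds of ribosome from nuclear genes. The cytosolic ribosome translates nearly all cellular messages, and in baker's yeast the genes of its proteins are transcribed at high rates that follow the growth rate and the nutrient supply. The mitochondrial ribosome descends from a bacterial one, has gained proteins of its own, and translates the few messages of the mitochondrial DNA, mainly subunits of the respiratory chain. Its proteins are made in the cytosol and imported.

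The wild type, strain CBS11895, was grown in chemostats, where the dilution rate sets the growth rate, here 0.1 per h, at pH 6 in SM urea medium with pluronic acid as antifoam and 10 mg/L ergosterol. The label micro-aerobic went with 20 g/L glucose and 420 mg/L Tween 80 (a source of unsaturated fatty acid), and the label aerobic with 7.5 g/L glucose and 84 mg/L of the detergent. A mutant strain, IMX2167, has in its label the genotype gut2Δ ndi/ndeΔ: GUT2 codes for a glycerol-3-phosphate dehydrogenase of mitochondria, and NDI and NDE for NADH dehydrogenases that pass electrons on without pumping protons. Its cultures were labelled aerobic, in SM medium with glucose at 7.5 g/L, and were run as batch at pH 6 or as chemostats at 0.1 per h and pH 5. Each of the 4 groups had 2 libraries, which the series calls biological replicates without saying more of their source, so that p-values measure the spread between these libraries. Whether IMX2167 is 1 clone was not stated in the labels. Within the wild type, the oxygen label, glucose and Tween 80 changed together. Within the mutant, batch growth and pH did. Between strains, genotype and medium differed throughout, the mutant labels naming no urea, Tween 80, ergosterol or antifoam. The comparisons of the mutant chemostat also differed in pH and those of the mutant batch in growth mode. Those with the wild type labelled micro-aerobic differed in glucose and the oxygen label as well. In each comparison these cannot be told apart.

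Libraries held 6104949 to 11126081 counts in genes. The unit of level used here is CPM, a count relative to the library's total, which is scaled by the trimmed mean of M values (TMM). Before that scaling, 3 counts, the limit that a count of 0 allows, stood for 0.270 to 0.491 CPM. GUT2 stood at 340 to 393 CPM in the wild type, at 94.8 and 111 in the mutant batch and at 27.3 and 29.8 in the mutant chemostat, and NDE1 at 49.7 to 72.1, at 4.55 and 5.34, and at 0.492 and 0.531. GUT2 was thus lower in all mutant libraries than in the wild type but well above the limit of a count of 0, and higher in batch than in the mutant chemostat (1.85 ± 0.14 on the log2 scale, adjusted p = 1.6e-07, edgeR's quasi-likelihood test). These values go against the full loss of the gene that the label gut2Δ would give, above all in batch, and whether the deposited gene span reaches past the deleted part was not tested. NDE1 in batch was likewise above the limit of a count of 0, and higher than in the mutant chemostat (3.23 ± 0.34, adjusted p = 4.5e-06, same test). The doubt thus covers both genes in the batch libraries, and its cause was not tested. The mutant groups are named as labelled, and every comparison with them rests on those labels. The wild-type labels are not borne out by genes known from baker's yeast to be raised when oxygen is short. HEM13 of heme synthesis stood at 1095 and 1202 CPM in the aerobic-labelled libraries against 56.4 and 61.3 in the others of the wild type, and ERG11 of sterol synthesis at 11161 and 12406 against 291 and 293 (both genes were chosen after their values were seen). The direction of the wild-type comparison rests on the labels as given and would turn if they were exchanged, and the comparisons of the mutant with either wild-type group would trade places. The comparison within the mutant uses no wild-type library. The aerobic-labelled libraries also stood apart from each other: all 70 cytosolic ribosomal protein genes were higher in replicate 1, by a median of 0.49 on the log2 scale, and 60 of 70 mitochondrial ones, by 0.22. Over all 5265 genes tested the median was -0.0026, and across those genes the replicate difference had an r of -0.38 with log2 gene length, so that short genes were relatively higher in replicate 1. Ribosomal protein genes are short, with a median of 563 bases in the cytosolic and 633 in the mitochondrial class against 1230 over all genes tested. Comparisons with this group are therefore also given without replicate 1.

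Per kilobase of gene, the cytosolic class had a median mean level of 2741 CPM over the 8 libraries and the mitochondrial class one of 203. The cytosolic levels ran from 386 CPM per kilobase for RPS28 to 7058 for RPS20, RPL11 (5465) and RPL20 (5232) being next below it. RPL4, whose protein lines the exit tunnel for the new chain, and RPL7 were low for this class at 458 and 567 CPM per kilobase. In the mitochondrial class RSM22, MRPL1 and MRP4 were lowest at 20.3, 41.2 and 43.2 CPM per kilobase, and MRPL16, MRPL38 and MRP2 highest at 606, 497 and 391. The ranges of both classes overlapped only at their ends. Introns divided the classes further: 23 of 70 cytosolic genes had more than 1 exon, against 2 of 70 mitochondrial genes and 351 of 5334 genes with an mRNA in the annotation.

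Summed over its 70 genes, the cytosolic class made up 89596 and 91171 CPM in the micro-aerobic-labelled libraries, 144676 and 102679 in the aerobic-labelled ones, 158742 and 147738 in the mutant batch and 78232 and 75540 in the mutant chemostat. Levels are shares of the RNA of a library, so a change in such a share and a change in RNA per cell cannot be told apart. Batch was highest and the mutant chemostat lowest, with no overlap between any of these groups, and the aerobic-labelled libraries spread most. The mitochondrial class summed to 8055 and 8548, to 8847 and 7456, to 12353 and 11757, and to 7197 and 7498 CPM in the same order. Here batch stood above every other library, while the range of the aerobic-labelled libraries took in that of the micro-aerobic-labelled ones and one of the mutant chemostat libraries. The cytosolic sum was 10.9 ± 0.32 times the mitochondrial sum in the wild type labelled micro-aerobic (SD, n = 2, as in the following), 15.1 ± 1.8 times in that labelled aerobic, 12.7 ± 0.20 times in the mutant batch and 10.5 ± 0.56 times in the mutant chemostat. As a share of all counts, the cytosolic genes ran from 8.33% in a mutant chemostat library to 16.0% in a batch library. Within the cytosolic class, the large-subunit sum was 1.31 ± 0.022 times the small-subunit sum in the aerobic-labelled libraries and 1.41 to 1.44 times in the means of the other groups.

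**Figure D1:**
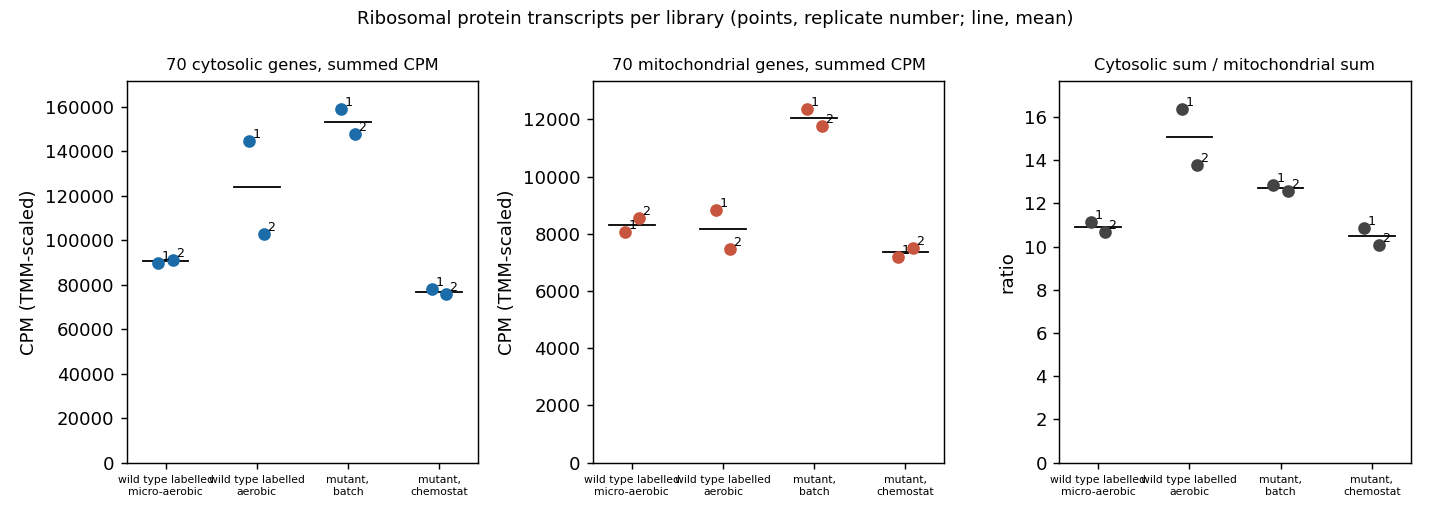
Summed CPM of the cytosolic class (left), of the mitochondrial class (middle) and their ratio (right) in each library, with the replicate number beside the point and a line at the group mean. The mutant batch is highest in both sums, and the ratio is highest in the aerobic-labelled libraries (16.4 and 13.8).

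The comparison of mutant batch with mutant chemostat describes how the mutant differed between these growth modes, with which pH changed as well. Cytosolic ribosomal protein genes rose almost as 1 block in batch: 69 of 70 were higher and 0 lower, with a median log2 fold change of 1.03 and a range of 0.46 to 1.51. Calls here and below are those of edgeR's quasi-likelihood test at a Benjamini-Hochberg adjusted p below 0.05 over all 5265 genes tested. Over all those genes 24.5% were called higher and 26.8% lower, with a median of -0.02. RPL39, which also lines the exit tunnel, was the member not called, with 257 and 219 CPM in batch and 200 and 122 in the chemostat (0.56, adjusted p = 0.071).

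RPL35 (OPAR_000873), a protein at the tunnel exit, had the largest rise of the class, from 316 and 555 CPM in the chemostat to 1251 and 1235 in batch. The chemostat libraries lay apart from each other, and both were below batch (1.51 ± 0.23, SE, as in the following; adjusted p = 1.1e-04). Part of this gene, 30.3% of its span, overlaps ARF1, and reads that fall on both genes were not counted under the deposited settings. RPS7, of the small subunit, stood at 3464 and 3087 CPM in batch and at 1058 and 1469 in the chemostat (1.37 ± 0.21, adjusted p = 1.4e-04). Genes named here and below for the largest changes were chosen among those without overlap between groups. Their lack of overlap is therefore no further result. RPL32 (OPAR_001859, Chr_03, 1110955 to 1111415 of the deposited annotation, 1 exon), of the large subunit, stood at 1967 and 1722 CPM in batch and at 670 and 774 in the chemostat (1.35 ± 0.20, adjusted p = 7.2e-05). Large- and small-subunit genes had medians of 1.03 and 1.03.

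Mitochondrial ribosomal protein genes also rose in batch, 55 of 70, with 0 lower, and with a smaller median of 0.69 and a wider range, from -0.04 to 1.41. MRPL44 (OPAR_002158), of the large subunit, rose most, from 35.7 and 39.4 CPM in the chemostat to 106 and 94.5 in batch (1.41 ± 0.16, adjusted p = 7.2e-06). Both batch libraries were above 90 CPM and both chemostat libraries below 40. MRPS8, of the small subunit, stood at 151 and 145 CPM against 54.9 and 68.5 (1.26 ± 0.15, adjusted p = 1.5e-05), and RSM27 at 131 and 108 against 44.8 and 57.7 (1.22 ± 0.19, adjusted p = 1.1e-04). MNP1, the counterpart of the bacterial stalk protein that recruits translation factors, was among the risers (1.01 ± 0.15). At the other end, PET123 and MRP4 of the small subunit stood at 108 and 110 against 125 and 99.4 CPM, and at 62.8 and 63.1 against 76.2 and 49.5. Their groups overlapped, and neither was called (-0.04 and 0.00).

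**Figure D2:**
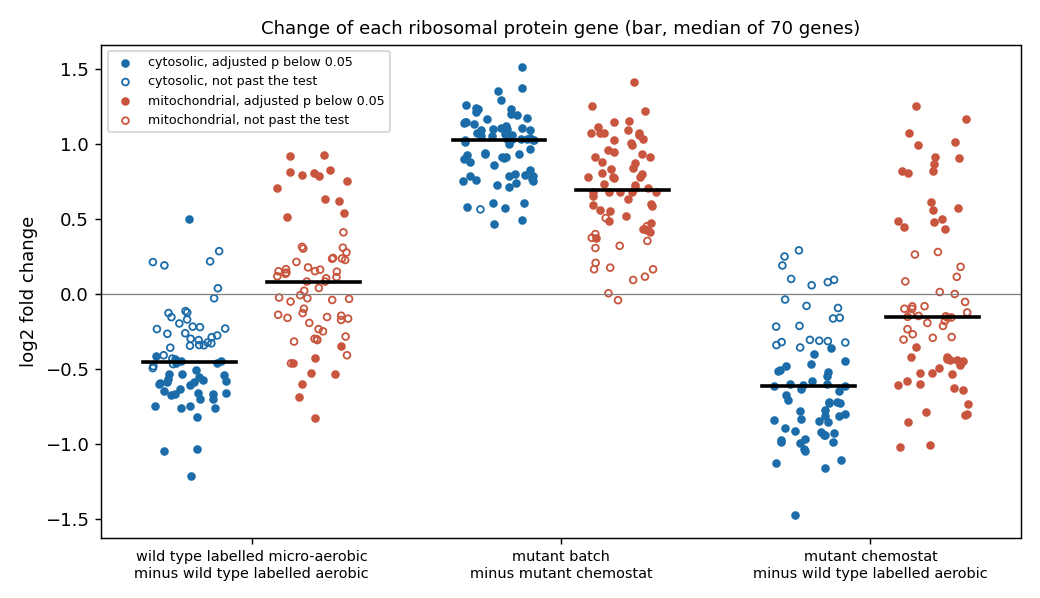
Log2 fold change of each cytosolic (blue) and mitochondrial (red) ribosomal protein gene in the comparisons named on the x axis. Filled points passed the test, and bars mark the class medians, which are 1.03 and 0.69 for batch and -0.46 and 0.08 for the wild type.

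The wild-type comparison was labelled as one of limited with ample oxygen. In the micro-aerobic-labelled libraries 36 of 70 cytosolic genes were lower and 1 was higher than in the aerobic-labelled ones, with a median of -0.46, while over all genes 22.3% were called lower and 23.2% higher, with a median of 0.02. Without replicate 1 of the aerobic-labelled libraries the counts were 14 lower and 2 higher and the median -0.17, and without replicate 2 they were 57 and 0, and -0.70. Leaving out replicate 1 or 2 of the micro-aerobic-labelled libraries left 13 and 14 lower and 0 higher, with medians of -0.42 and -0.47. The share over all genes was not counted in these repeats. Counts of 13 or 14 of 70 are not above the 22.3% called lower over all genes with all libraries. Whether the calls set the cytosolic class apart thus depends on single libraries, while its median was negative in each repeat. With all libraries, all 26 small-subunit genes had negative values, of which 16 were called, as did 38 of 44 large-subunit genes, of which 20 were called.

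RPL32 stood at 684 and 590 CPM in the micro-aerobic-labelled libraries and at 1816 and 1145 in the aerobic-labelled ones. The groups were apart, although replicate 1 of the latter was well above replicate 2, and RPL32 fell by 1.22 ± 0.20 (adjusted p = 1.9e-04; -0.85 without that replicate, adjusted p = 0.0014). RPL43, a large-subunit protein with a zinc finger, stood at 612 and 596 against 1530 and 967 CPM (-1.05 ± 0.19, adjusted p = 5.8e-04; -0.68 without that replicate). RPS26, which lies at the exit of the mRNA channel, stood at 1220 and 1059 against 2802 and 1865 CPM (-1.03 ± 0.18, adjusted p = 4.0e-04; -0.71 without it). These genes kept their call without replicate 1. RPS7, next in the order of falls, did not (-0.82, adjusted p = 0.0063, and -0.43, adjusted p = 0.084, without it). RPL4 was the riser, at 584 and 534 CPM against 453 and 337 (0.50 ± 0.16, adjusted p = 0.019), and was not called without replicate 2 of the aerobic-labelled libraries (0.29, adjusted p = 0.13).

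The mitochondrial class moved both ways in the wild type, with 13 genes higher and 8 lower of 70 and a median of 0.08. These shares, 18.6% and 11.4%, were below the 23.2% and 22.3% over all genes, so that the counts do not set the class apart, and the genes below are described one by one. MRX14, RSM24 and MRPL6 had the largest rises. MRX14, of the large subunit, stood at 30.8 and 29.2 CPM in the micro-aerobic-labelled libraries and at 13.9 and 17.5 in the aerobic-labelled ones (0.93 ± 0.19, adjusted p = 0.0015). RSM24, of the small subunit, stood at 108 and 93.9 against 53.2 and 53.8 CPM (0.92 ± 0.15, adjusted p = 2.0e-04), its aerobic replicates close together. MRPL6, of the large subunit, stood at 83.4 and 76.3 against 50.1 and 40.2 CPM (0.83 ± 0.16, adjusted p = 9.6e-04). The falls were led by MRP2 of the small subunit, at 122 and 112 against 233 and 183 CPM (-0.83 ± 0.15, adjusted p = 5.9e-04). MRPL28, of the large subunit, stood at 54.4 and 56.1 against 97.8 and 80.0 CPM (-0.69 ± 0.18, adjusted p = 0.0077), and MRP49 at 78.3 and 81.4 against 132 and 111 CPM (-0.60 ± 0.15, adjusted p = 0.0050). These 6 genes were chosen among those without overlap between groups. Without replicate 1 of the aerobic-labelled libraries 15 mitochondrial genes were higher and 3 lower, and MRPL28 was no longer called (-0.54, adjusted p = 0.068), and without replicate 2 the counts were 13 and 13 and the median -0.09. Without replicate 1 of the micro-aerobic-labelled libraries the counts were 11 and 1.

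Between the mutant chemostat and the wild type labelled aerobic, which had the same dilution rate and glucose, 49 of 70 cytosolic genes were lower and 0 higher, with a median of -0.61. Over all genes 29.4% were called lower and 31.3% higher, with a median of 0.03. These calls share their control libraries with those of the wild-type comparison, and the results are not independent. Without replicate 1 of the aerobic-labelled libraries 37 were lower and 2 higher, with a median of -0.39, and without replicate 2 they were 57 and 0, with a median of -0.86. RPS7 stood at 1058 and 1469 CPM in the mutant chemostat and at 4355 and 2689 in the wild type (-1.48 ± 0.21, adjusted p = 5.6e-05). RPS15, a protein of the head of the small subunit, stood at 868 and 1057 against 2549 and 1763 CPM (-1.16 ± 0.18, adjusted p = 8.5e-05). RPL1, which forms the stalk beside the exit site for tRNA, stood at 1884 and 2077 against 5142 and 3521 CPM (-1.13 ± 0.18, adjusted p = 1.2e-04). These 3 genes were chosen among those without overlap between groups. Without replicate 1 of the aerobic-labelled libraries their values were -1.10, -0.88 and -0.84.

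In the same comparison the mitochondrial class held 19 higher and 24 lower genes of 70, with a median of -0.15. These shares, 27.1% and 34.3%, were near the 31.3% and 29.4% over all genes. Under upper quartile scaling, which moved the median of all genes by 0.18, it held 20 higher and 12 lower with a median of 0.03, so that the balance of the class depends on the scaling. It held 17 higher and 9 lower without replicate 1 of the aerobic-labelled libraries, and 15 and 11 without replicate 1 of the mutant chemostat. MRP4 stood at 76.2 and 49.5 CPM in the mutant chemostat and at 24.4 and 28.1 in the wild type (1.25 ± 0.21, adjusted p = 1.5e-04). PET123 stood at 125 and 99.4 against 55.5 and 44.5 CPM (1.17 ± 0.16, adjusted p = 3.4e-05), and MRPL32, a large-subunit protein that in baker's yeast is cut by a mitochondrial protease before it joins the ribosome, at 45.9 and 35.5 against 20.8 and 18.0 CPM (1.07 ± 0.20, adjusted p = 4.9e-04). On the other side, MRP2 stood at 93.1 and 111 against 233 and 183 CPM (-1.02 ± 0.15, adjusted p = 7.0e-05) and MRP49 at 53.1 and 67.1 against 132 and 111 CPM (-1.01 ± 0.15, adjusted p = 6.5e-05). RSM27 had a value of -0.86 ± 0.19 (adjusted p = 0.0015). These 6 genes, too, were chosen among those without overlap between groups.

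The 13 mitochondrial genes higher in the micro-aerobic-labelled libraries were MRP51, NAM9, MRPL49, MRX14, RSM22, MRPL9, MRPL32, RSM24, RML2, MRPL6, MRP4, PET123 and IMG2, 7 of the large and 6 of the small subunit. RML2, a core protein of the large subunit, stood at 148 and 137 CPM in the micro-aerobic-labelled libraries, 95.5 and 79.1 in the aerobic-labelled ones, 189 and 203 in batch and 198 and 150 in the mutant chemostat. NAM9, of the small subunit, stood at 120 and 111, at 70.9 and 79.9, at 181 and 189 and at 148 and 116 CPM. Both genes were lowest in the aerobic-labelled libraries, without overlap with any other group. They were taken from genes picked for being lower there than in the micro-aerobic-labelled libraries. The mutant groups were set against the same aerobic-labelled libraries, so that this order is no independent result. From mutant chemostat to batch, a comparison that shares no library with that of the wild type, 7 of the 13 were called higher. Their values ran from -0.04 to 0.99 with a median of 0.40. In the whole class 55 of 70 genes (78.6%) were called higher there, and over all genes 24.5%. Against the same aerobic-labelled controls the values of the 13 were -0.42 to 1.25 in the mutant chemostat, IMG2 being the lowest of them, and 0.57 to 1.51 in the mutant batch. In the wild type 12 of 13 were called without replicate 1 of those controls, where RSM22 was lost (adjusted p = 0.091), and 12 without replicate 2, where MRPL49 was lost (adjusted p = 0.083).

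The 8 mitochondrial genes lower in the micro-aerobic-labelled libraries were MRPL22, MRP2, MRP49, MRP1, RSM26, MRPS8, MRPL28 and MRP7, 4 of each subunit. All 8 were called higher from mutant chemostat to batch, by 0.68 to 1.26 with a median of 0.97, beside 55 of 70 (78.6%) in the class and 24.5% over all genes. The 13 and the 8 genes were picked by their wild-type change. Across all genes tested that change had an r of -0.51 with the change to batch, so that the contrast between them in batch is not particular to these genes. Against the shared aerobic-labelled controls the 8 genes had -1.02 to -0.10 in the mutant chemostat and -0.30 to 0.77 in batch. In the wild type 3 of 8 were called without replicate 1 of those controls and 7 of 8 without replicate 2. The 13 genes had a median length of 981 bases (315 to 2139) and the 8 genes one of 645.5 bases (381 to 1418), against 633 bases for the class. Across the 70 mitochondrial genes the wild-type log2 fold change had an r of 0.22 with log2 length, and of 0.07 without replicate 1 of the aerobic-labelled libraries (both across genes of the same libraries). The part of length in these values was not tested.

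**Figure D3:**
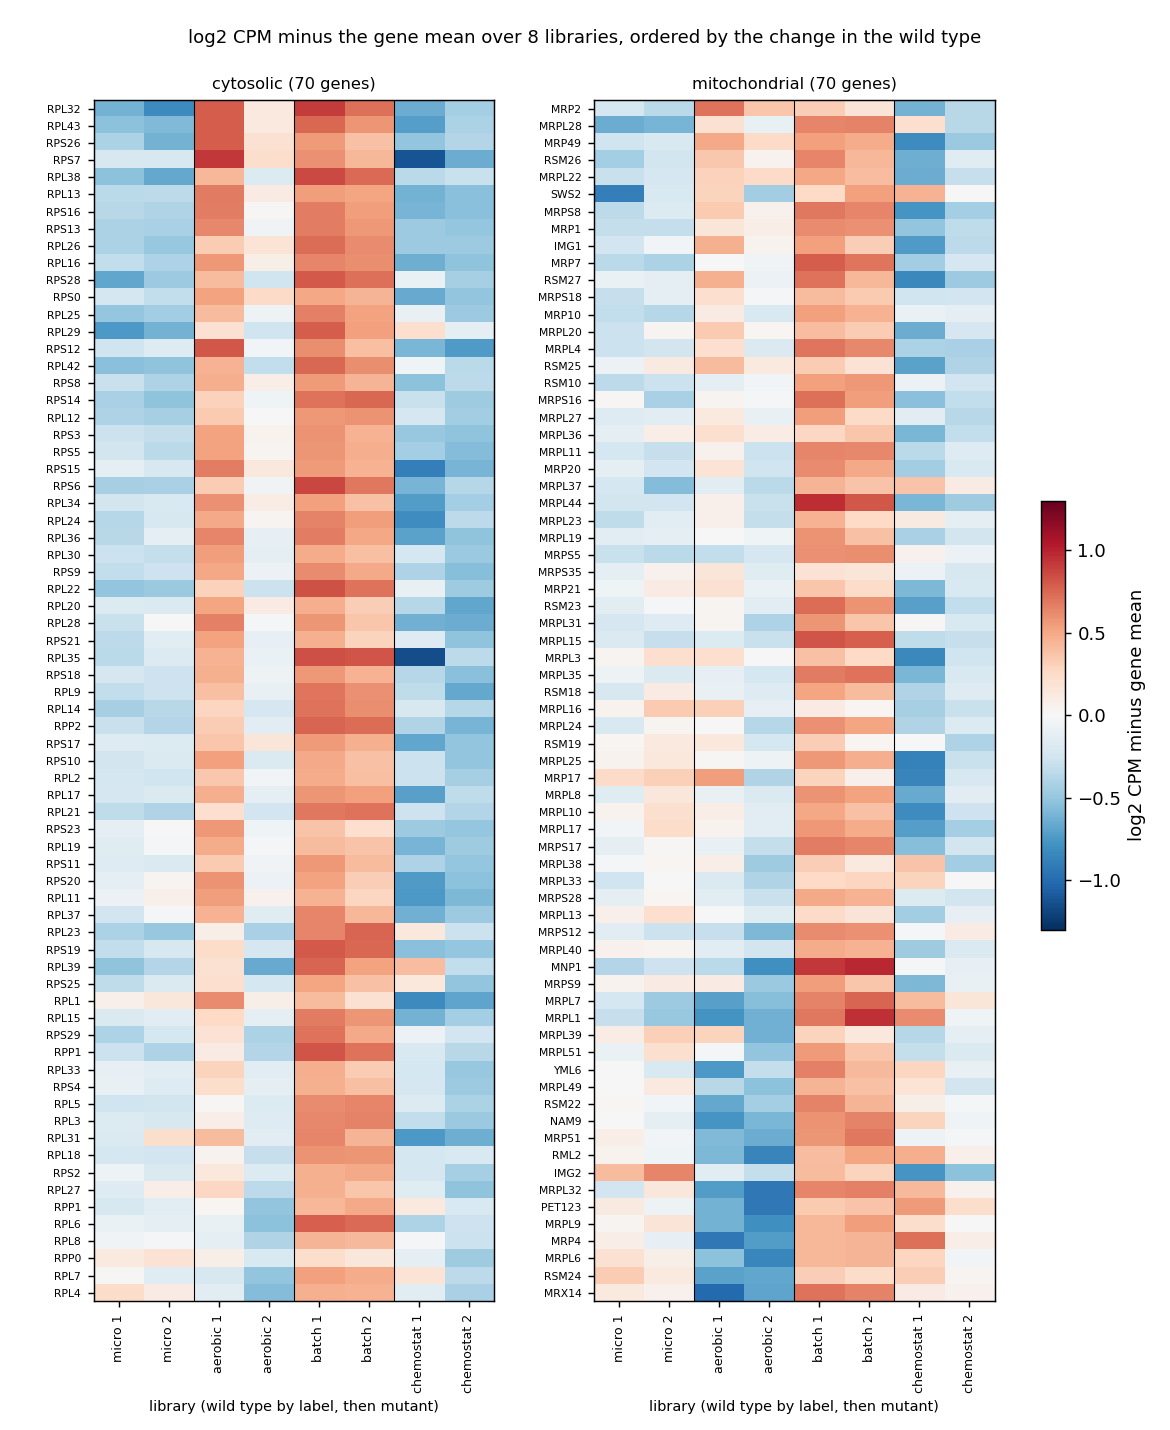
Log2 CPM of each cytosolic (left) and mitochondrial (right) gene minus its mean over the 8 libraries, in columns by library and in rows ordered by the wild-type change. Cytosolic rows are high in batch, where 69 of 70 genes passed the test against the mutant chemostat. The bottom rows of the mitochondrial panel are low in both aerobic-labelled libraries, which the order of the rows brings about and is no further result.

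IMG2, a large-subunit protein known in baker's yeast for being needed to keep the mitochondrial genome, differed from the other 12 risers. The gene was picked out after its values were seen, and its order of groups is a description only. It stood at 165 and 193 CPM in the micro-aerobic-labelled libraries, 113 and 100.4 in the aerobic-labelled ones, 165 and 152 in batch and 73.2 and 86.0 in the mutant chemostat. The mutant chemostat was lowest, without overlap with any other group, and the difference from the wild type labelled micro-aerobic (-1.17, adjusted p = 7.5e-05) had the largest size of any mitochondrial member in that comparison.

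Over all cytosolic genes, the sums placed the mutant chemostat below the wild type labelled micro-aerobic, that labelled aerobic and the mutant batch, in this order. Between the first neighbours, 7 cytosolic genes were lower and 1, RPL29, was higher in the mutant chemostat (median -0.20), where over all genes 13.4% were called lower and 13.7% higher. This count was 0 to 19 when single libraries were left out, 0 without replicate 2 of the micro-aerobic-labelled libraries and 1 without replicate 1 of the mutant chemostat, so that few members separated these groups beyond the spread. RPL1 had the largest difference (-0.87, adjusted p = 0.0045). Of the mitochondrial genes 5 were higher and 10 lower (7.14% and 14.3%, the first below and the second near the shares over all genes; 7 and 7 under upper quartile scaling), from 1 called without replicate 1 of the mutant chemostat to 33 without its replicate 2.

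Between the mutant batch and the wild type labelled aerobic, the neighbours at the high end, 29 cytosolic genes were higher in batch and 0 lower (median 0.35), where over all genes 24.0% were called higher and 24.2% lower. The count was 62 without replicate 1 of the aerobic-labelled libraries, with a median of 0.68, 21 without their replicate 2, with a median of 0.13, and 15 without replicate 1 of the mutant batch. The mitochondrial class held 50 higher genes and 0 lower, with a median of 0.62 and an all-gene median of 0.04. Against the wild type labelled micro-aerobic, 63 cytosolic and 48 mitochondrial genes were higher in batch and 0 of either class lower, with medians of 0.82 and 0.58, where over all genes 22.2% were called higher and 21.6% lower. The mitochondrial count was 29 without replicate 1 of the mutant batch and 30 without replicate 1 of the micro-aerobic-labelled libraries.

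The wild-type and the mutant comparison share no library, so that their changes can be set against each other. Across the 70 cytosolic genes the wild-type change had a Pearson r of -0.54 and a Spearman rho of -0.48 with the change from mutant chemostat to batch. Across the 70 mitochondrial genes r was -0.49 and rho -0.48. Across all 5265 genes tested r was -0.51 and rho -0.41, so that the relation within either class was close to that of genes at large. Genes are not independent replicates, and no p is given.

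**Figure D4:**
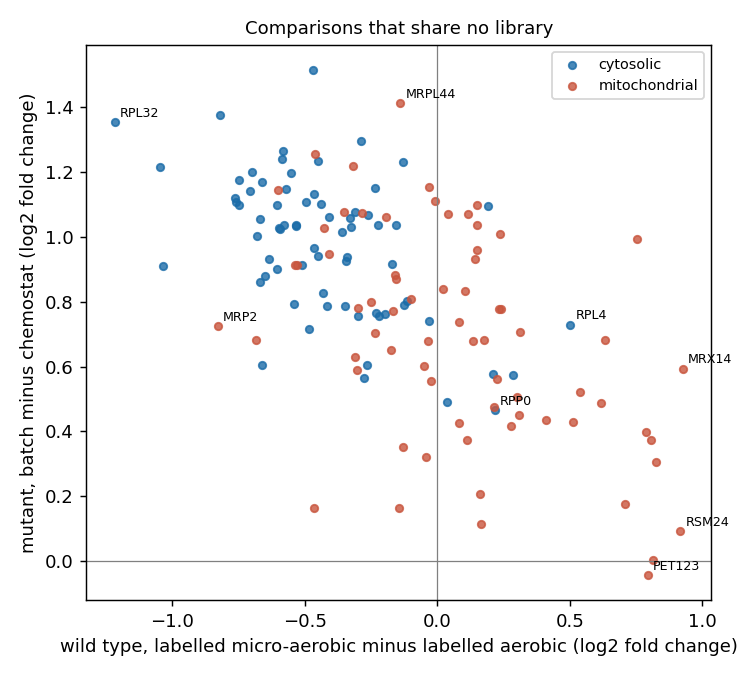
Log2 fold change of each gene in the mutant (batch minus chemostat, y axis) against that in the wild type (labelled micro-aerobic minus labelled aerobic, x axis), cytosolic in blue and mitochondrial in red. Cytosolic genes lie to the upper left (r -0.54) and the mitochondrial genes spread along a line of the same slope direction (r -0.49), with RSM24, PET123 and MRX14 at its right end.

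The stalk of the large subunit, which recruits the translation GTPases, is built from RPP0 and the small acidic proteins of the RPP1 and RPP2 families. RPP0 stood at 1456 and 1515 CPM in the micro-aerobic-labelled libraries, 1399 and 1158 in the aerobic-labelled ones, 1557 and 1475 in batch and 1229 and 968 in the mutant chemostat. It had the smallest batch rise of the cytosolic class (0.46 ± 0.15, adjusted p = 0.022). RPP2 stood at 855 and 807, at 1315 and 953, at 1766 and 1734 and at 798 and 691 CPM, and rose by 1.23 ± 0.16 (adjusted p = 3.3e-05). The RPP1 genes rose by 1.04 ± 0.16 (OPAR_003320) and by 0.49 ± 0.17 (OPAR_003250, adjusted p = 0.026). The stalk genes thus had values from the low end of the class to above its median of 1.03.

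Several families were represented by 2 genes, of which at least 1 often had no homolog named. Whether the deposited counting divided reads between such copies was not tested, and their values are uncertain in that respect. The RPS22 genes, of the small subunit, had opposite orders. OPAR_003679 (Chr_06, 174381 to 174773, 1 exon) stood at 620 and 752 CPM in the micro-aerobic-labelled libraries, 1124 and 721 in the aerobic-labelled ones, 1617 and 1396 in batch and 496 and 389 in the mutant chemostat. OPAR_004813 (Chr_07, 513014 to 514013, 2 exons) stood at 250 and 274, at 216 and 153, at 187 and 177 and at 281 and 229 CPM. The first was highest in batch and the second lowest there apart from an aerobic-labelled library. From chemostat to batch the first rose by 1.77 ± 0.20 (adjusted p = 1.0e-05), more than any of the 70 genes assigned to the cytosolic class, and the second changed by -0.49 ± 0.17 (adjusted p = 0.025). Against the aerobic-labelled libraries, the mutant chemostat had -1.06 (adjusted p = 5.1e-04) for the first and 0.47 (adjusted p = 0.025) for the second, which was not called without replicate 2 of those libraries (0.22, adjusted p = 0.24).

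Other pairs went the same way at different levels. RPL9 had a high gene (OPAR_004018), at 2678 and 2485 CPM in batch and 1313 and 1044 in the mutant chemostat (1.13, adjusted p = 1.3e-04), and a low one (OPAR_002313), at 269 and 260 against 219 and 190 CPM (0.37, adjusted p = 0.044). The low gene was higher in the aerobic-labelled libraries, at 371 and 291 CPM, than in either mutant group. From mutant chemostat to batch the RPL6 genes rose from 354 and 388 to 804 and 782 CPM (OPAR_001697, adjusted p = 5.0e-05) and from 165 and 268 to 580 and 522 CPM (OPAR_000842, adjusted p = 1.4e-04), and the RPS27 genes by 0.80 (OPAR_002107) and 0.83 (OPAR_002908). OPAR_002582, with a ribosomal protein S30 domain and no homolog named, stood at 1041 and 904 CPM in batch and at 818 and 616 in the mutant chemostat and was not called (0.44, adjusted p = 0.083).

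**Figure D5:**
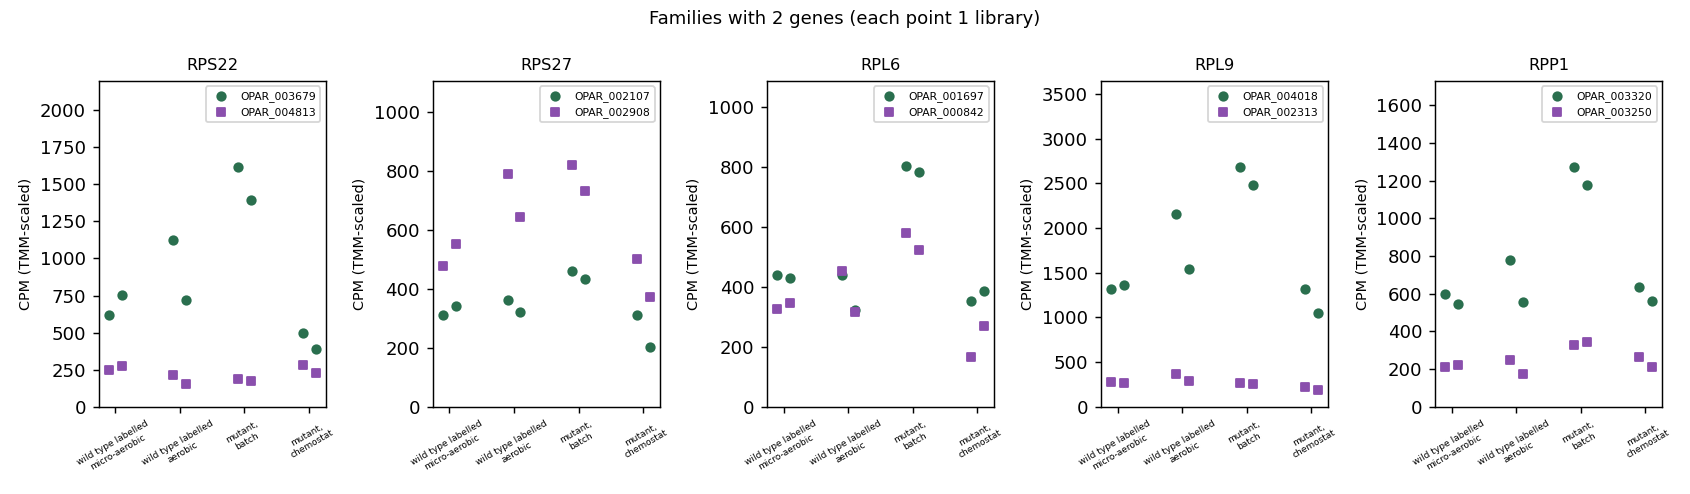
CPM of families with 2 genes, each point 1 library and each colour 1 gene, by group along the x axis. The RPS22 genes run in opposite directions, with OPAR_003679 at 1617 and 1396 CPM in batch and OPAR_004813 at 187 and 177, while both genes of the other families are higher in batch than in the mutant chemostat.

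Genome order offered a further view. Among the members 14 pairs of next neighbours were found, 6 of them with both cytosolic, 2 with both mitochondrial and 3 with 1 of each. RPS16 and RPL13, which are divergent with 172 bases between them, had nearly equal values, -0.75 and -0.76 in the wild type, 1.17 and 1.11 in the mutant, and -0.94 and -0.99 between mutant chemostat and wild type labelled aerobic. RPS18 and YML6 lie on the same strand 94 bases apart and belong to different classes. Their values in the last comparison were -0.67 and 0.61, both called with all libraries. Without replicate 1 of the aerobic-labelled libraries they were -0.40 and 0.41, and YML6 was not called. MRP49 and MRPL38, both mitochondrial and on the same strand with 95 bases between them, had -1.01 and 0.18 there, of which the first was called. From chemostat to batch the genes of these latter pairs had positive values, as nearly all members did, with 0.97 and 0.43 for RPS18 and YML6 and 1.15 and 0.21 for MRP49 and MRPL38. These 3 pairs were chosen after their values were seen. Of the 14 pairs, 9 had the same sign in the wild type, 14 from chemostat to batch and 9 between mutant chemostat and wild type labelled aerobic. From chemostat to batch all 70 cytosolic and 69 of 70 mitochondrial genes had positive values, so that the same sign there was nearly given in advance. How often neighbours among all genes share a sign was not tested, and the counts are read as no result about genome order. Cytosolic genes with and without introns had similar medians, 1.01 and 1.03 from mutant chemostat to batch.

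A few members had no usable value or an uncertain role. The loci annotated as RPS24 (OPAR_000730, Chr_02, 185568 to 186057) and RPS1 (OPAR_004092, Chr_06, 827184 to 828028) had 0 counts in all 8 libraries. All of their span (100%) lies within other annotated genes, CDC12 and VTC1 for the first and IMH3 for the second, and the deposited counting left out reads that touch 2 genes, so that a count of 0 says nothing of their expression. They were the 2 of 150 members that were not tested. PPE1 (OPAR_003054), is named for a methylesterase of a protein phosphatase, and its deposited terms also place it in the small subunit of the mitochondrial ribosome. It was counted in neither class. It stood at 92.8 and 115 CPM in the micro-aerobic-labelled libraries, 164 and 194 in the aerobic-labelled ones, 60.5 and 57.5 in batch and 68.2 and 80.8 in the mutant chemostat. It was thus lowest in batch, where nearly all ribosomal protein genes were highest, although the step from chemostat to batch was not called (-0.34, adjusted p = 0.078).

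Genes that work with the ribosome were counted in the main comparisons, beside shares over all genes of 24.5% higher and 26.8% lower in batch, 23.2% and 22.3% in the wild type, and 31.3% and 29.4% between mutant chemostat and wild type labelled aerobic. Of 26 cytosolic translation factors tested, of 34 listed, 20 rose and 0 fell in the mutant batch (median 0.55), 3 were higher and 5 lower in the wild type labelled micro-aerobic, and 2 were higher and 11 lower in the mutant chemostat than in the wild type labelled aerobic. The share called in batch was 76.9%, while the wild-type shares of 11.5% and 19.2% were below those over all genes. TIF35, a subunit of initiation factor eIF3, stood at 285 and 312 CPM in the micro-aerobic-labelled libraries, 904 and 744 in the aerobic-labelled ones, 299 and 310 in batch and 279 and 236 in the mutant chemostat. It was therefore high in the aerobic-labelled libraries only (-1.46 ± 0.15 in the wild type, adjusted p = 2.0e-06). NEW1, a relative of the fungal elongation factor eEF3, had -0.89 ± 0.13 in the wild type and 1.17 ± 0.13 in the mutant.

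Of 11 mitochondrial translation factors tested, of 12 listed, 5 rose and 0 fell in batch, 2 were higher and 1 lower in the wild type labelled micro-aerobic, and 3 were higher and 3 lower in the mutant chemostat than in the wild type labelled aerobic. The wild-type shares of 18.2% and 9.09%, and those of 27.3% each in the last comparison, were below or near those over all genes. GUF1, a GTPase that acts on mitochondrial ribosomes, stood at 32.7 and 37.4 CPM in the micro-aerobic-labelled libraries, 18.1 and 20.2 in the aerobic-labelled ones, 47.8 and 54.7 in batch and 54.7 and 42.6 in the mutant chemostat. It was low in the aerobic-labelled libraries (0.87 ± 0.20 in the wild type, adjusted p = 0.0027). The elongation factor MEF1 was likewise lowest there, at 66.7 and 61.1 CPM against 109 and 93.9 in the micro-aerobic-labelled libraries (0.67 ± 0.15, adjusted p = 0.0029).

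Of 10 genes known from baker's yeast to regulate ribosomal protein genes, of 16 listed, 4 were higher and 0 lower in the wild type labelled micro-aerobic, 0 were higher and 1 lower in batch, and 3 were higher and 0 lower in the mutant chemostat than in the wild type labelled aerobic. With 10 genes these counts are small, and the 3 of 10 higher in the last comparison was near the share over all genes. KOG1, a subunit of the TOR complex that senses nutrients, stood at 62.5 and 62.1 CPM against 29.6 and 47.5 in the wild type (0.69 ± 0.19, adjusted p = 0.011). RAP1, which binds ribosomal protein gene promoters in baker's yeast, was the gene lower in batch (-0.39 ± 0.12, adjusted p = 0.015). Of 8 chaperones that escort single ribosomal proteins, of 9 listed, 5 rose and 0 fell in batch, 1 was higher and 2 lower in the wild type labelled micro-aerobic, and 3 were higher and 3 lower in the mutant chemostat than in the wild type labelled aerobic. The wild-type counts and those of the last comparison (37.5% each way) rest on 1 to 3 genes of 8 and are read as no result. SYO1, the import partner of RPL5 and RPL11, stood at 258 and 256 CPM in batch and at 97.7 and 126 in the mutant chemostat (adjusted p = 1.1e-05).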

How the data were processed

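RNA was extracted with phenol and chloroform, polyadenylated RNA was selected and stranded libraries were made, per the labels' protocols. Raw whole-number counts per gene were deposited by the authors. Tools listed in the submitters' processing notes were edgeR 3.28.1, featureCounts 1.6.0, Bowtie 1.2.1.1 and SAMtools 1.3.1. Per the file headers, featureCounts counted read pairs on genes with no strand setting and left out reads that touch 2 genes, so reads from opposite strands cannot be told apart. A genome build was not given in the sources used here. Another 4 columns of the table belong to libraries outside this series and were left aside.

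From the counts, all 8 libraries (6104949 to 11126081 counts, intervals and floors covering counting error only) were fitted together in edgeR 4.0.16 (R 4.3.3) with TMM scaling, the default low-count filter (5265 of 5428 genes) and group means, and tested by quasi-likelihood F tests on 4 residual degrees of freedom, adjusted over all genes tested. SE is the log2 fold change divided by the root of F. The tests were checked on simulated counts. CPM are TMM-scaled with no prior count, apart from the floors, which are not scaled. Alternatives were DESeq2 1.42.0, other scalings, filters, blocks, class rules and single libraries left out.

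Named members were, per class and comparison, the 3 largest rises and falls called with at least 10 CPM and no overlap of groups, members called against the majority of their class, the 3 highest and lowest levels per kilobase, the stalk genes, the member whose homolog is known as an enzyme and those under the filter. Subunit neighbours, pairs, RPL39 and IMG2 were added after their values were seen. RML2 was among the members called against the majority of their class, and its levels in all groups were picked out after they were seen. Members and lists were chosen with earlier results of these data known. RPL40, RPS31, ASC1 and OPAR_001817, annotated as another RPL8 gene, were not found by the rule, and this list may not be complete. Symbols follow the S288C homolog. Same-numbered libraries did not deviate together, and whether they are paired is not known. Promoter sequences were not used here.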

Additional observations from a re-analysis of the deposited data

How the results depend on the processing

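With 2 libraries a group, 1 library can decide a call. Leaving out single libraries gave these ranges of called genes, cytosolic first: 13 to 57 and 12 to 26 for the wild-type comparison, 62 to 70 and 44 to 61 for batch against chemostat, 39 to 57 and 26 to 49 for mutant chemostat against the wild type labelled aerobic, 0 to 19 and 1 to 33 against that labelled micro-aerobic, 15 to 62 and 34 to 54 for batch against the wild type labelled aerobic, and 47 to 67 and 29 to 55 against that labelled micro-aerobic. A lone library was then assumed to vary like the other groups. The cause of these shifts was not tested. Of the other alternatives 4 moved a value: fitting only the groups compared gave 15 cytosolic calls between mutant chemostat and wild type labelled micro-aerobic, upper quartile scaling gave 47 for batch against the wild type labelled aerobic, and classing the unresolved genes by domain gave ratios of cytosolic to mitochondrial sums of 11.2 in the wild type labelled micro-aerobic and 13.1 in batch. DESeq2, median-ratio (RLE) scaling, no filter and leaving out overlapping members kept all 12 counts within 1.5 times. Of 1080 repeats of results of named members, 973 had the same direction and side of the threshold, 107 the same direction without the call, and 0 reversed.

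Same-numbered libraries did not deviate together (r of -0.25 in the mutant and -0.19 in the wild type). With 2 libraries a group this cannot exclude a pairing, and whether cultures were paired is not known. With a replicate block by the shared title code, batch against chemostat gave 70 cytosolic and 55 mitochondrial calls, and with the crossed pairing, added after seeing the data, 70 and 56. A replicate block in accession order gave 35 and 20 calls in the wild type and 54 and 43 between mutant chemostat and wild type labelled aerobic. No block moved a count by more than 1.5 times.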
